A study of Mus musculus with 12 samples.

Results

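Mouse bone marrow monocytes that had spent a night with platelets before they were given lipopolysaccharide (LPS) were compared with monocytes that were given LPS alone. The comparison covers 6 of the 12 libraries of the series, 3 in each group, which were chosen by their titles and treatment labels. All cells came from bone marrow of wild-type C57Bl6J mice, a common inbred strain, and RNA was read from whole cell samples by RNA sequencing. In the platelet plus LPS group, platelets were washed away after the night and LPS was added next. The LPS group received no platelets, and the other 6 libraries are an untreated group and a group kept with platelets but given no LPS. The labels name no dose and no duration of LPS, and no control for the wash or for the extra handling is labelled. Of 53819 genes in the files, 23388 had a count in the 6 libraries and 13151 passed the filter on low counts and were tested.

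LPS is a component of the outer membrane of Gram-negative bacteria and is sensed by Toll-like receptor 4 with its partner CD14. In monocytes it switches on NF-kB and interferon regulatory factors, and through them cytokines, chemokines, interferon-stimulated genes and enzymes of host defence. Platelets are anucleate fragments of megakaryocytes that carry lipids, chemokines, transforming growth factor beta (TGF-beta) and a small store of RNA, and they adhere to monocytes and are taken up by them. Cells that take in cholesterol are known to lower sterol synthesis through the SREBP2 factor and to raise cholesterol export through the liver X receptors (LXR).

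Levels are given as CPM, a gene's count per fixed total of its library after scaling with edgeR's TMM factors, always in the order of replicates 1, 2 and 3. A gene is called higher or lower, or said to have risen or fallen, where edgeR's quasi-likelihood test, two-sided, gave a Benjamini-Hochberg adjusted p under 0.05 over all genes tested. Every adjusted p below comes from that test, and log2 fold changes are platelet plus LPS over LPS with their standard error (SE). Whether replicates were separate mice, separate cultures or repeats of 1 sample is not labelled, and p-values therefore reflect the spread of these libraries alone, possibly a technical one.

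Total counts per library were 20060867 to 32155727, so that 3 counts correspond to 0.0854 to 0.163 CPM. Among the 6 libraries, the first principal component held 37.8% of the variance and separated the groups, with scores of -32.7 to -19.8 for LPS and 23.2 to 34.1 for platelet plus LPS. Mitochondrial transcripts took 0.431 to 0.506% of counts in the LPS libraries and 0.509 to 0.532% in the platelet plus LPS libraries, and none of 10 mitochondrial transcripts and none of 56 ribosomal protein genes tested was called. Without platelet replicate 1, 2 mitochondrial transcripts were higher and 2 lower. Replicate 1 of the platelet group stood apart from its group, and its description reads "Control" against a title and a treatment label of platelets. It is not in the comparison, but it enters the shared estimate of spread, so that counts without it are given beside the results it moves. Transcripts of myeloid cells were abundant in the 6 libraries. Csf1r, the receptor of the monocyte growth factor M-CSF, was at 1426 to 1770 CPM and Lyz2, the lysozyme of myeloid cells, at 27023 to 33462 CPM. Cd3e of T cells had no count. These genes do not tell monocytes from macrophages, so that the monocyte label itself was not tested.

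Platelets before LPS changed 957 of the 13151 genes (7.28%), of which 580 were higher (4.41%) and 377 were lower (2.87%). The median called gene differed 1.54-fold, and 213 called genes differed at least 2-fold, 160 higher and 53 lower. The median log2 fold change over all genes tested was 0.01. All but 3 of the called genes had no overlap between the 3 and 3 libraries, which was also true of 27.0% of all genes tested. Lack of overlap was also a condition for the largest rises and falls named below. Where it is given for a called gene, it is therefore no support beyond the call. Leaving out 1 library moved the total to 557 without platelet plus LPS replicate 2, 597 without platelet plus LPS replicate 1, 628 without LPS replicate 3 and 1640 without platelet replicate 1.

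**Figure D1:**
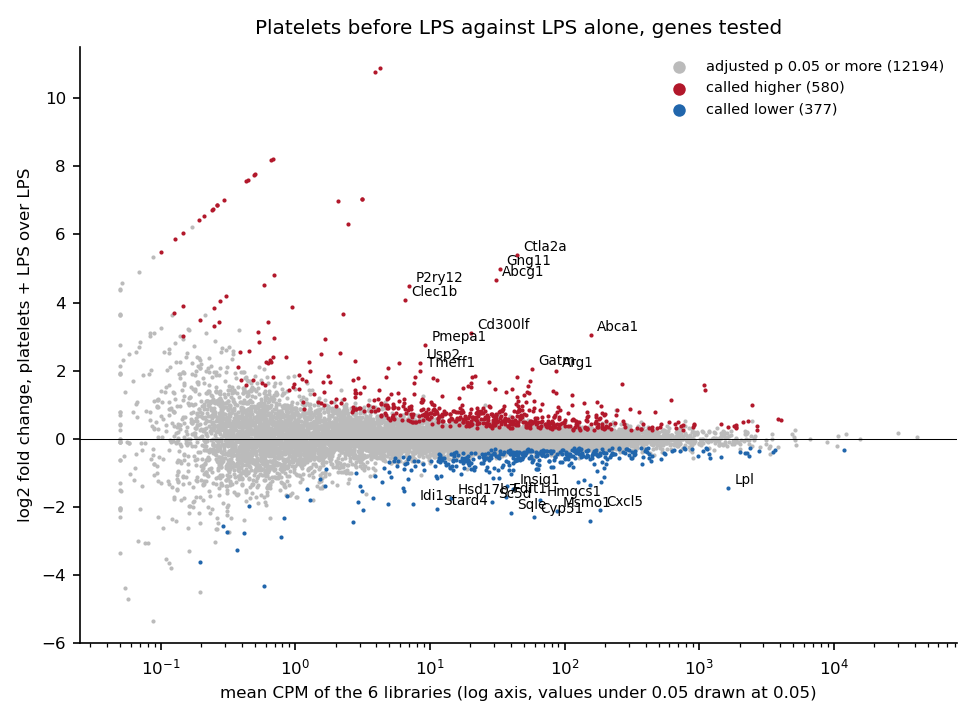
Each point is 1 of the 13151 genes tested, with its mean CPM over the 6 libraries on a log axis and the log2 fold change of platelet plus LPS over LPS on the vertical axis. The 580 genes called higher are red, the 377 called lower are blue, and the 12 largest rises and 12 of the largest falls among genes at 10 CPM or more are named; genes of cholesterol metabolism make up 10 of the 12 named falls.

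The 12 largest rises at 10 CPM or more were Ctla2a, Gng11, Abcg1, P2ry12, Clec1b, Cd300lf, Abca1, Pmepa1, Usp2, Gatm, Tmeff1 and Arg1. Among the largest falls were 12 genes, Cyp51, Sqle, Msmo1, Cxcl5, Stard4, Idi1, Sc5d, Hmgcs1, Hsd17b7, Fdft1, Insig1 and Lpl. Of these 12, 10 belong to the synthesis, transport or regulation of cholesterol, and the exceptions are Cxcl5, a chemokine that attracts neutrophils, and Lpl, a lipoprotein lipase. The rises were more mixed: transporters that export cholesterol, genes known from platelets, a TGF-beta response gene, and enzymes of arginine and creatine metabolism.

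**Figure D2:**
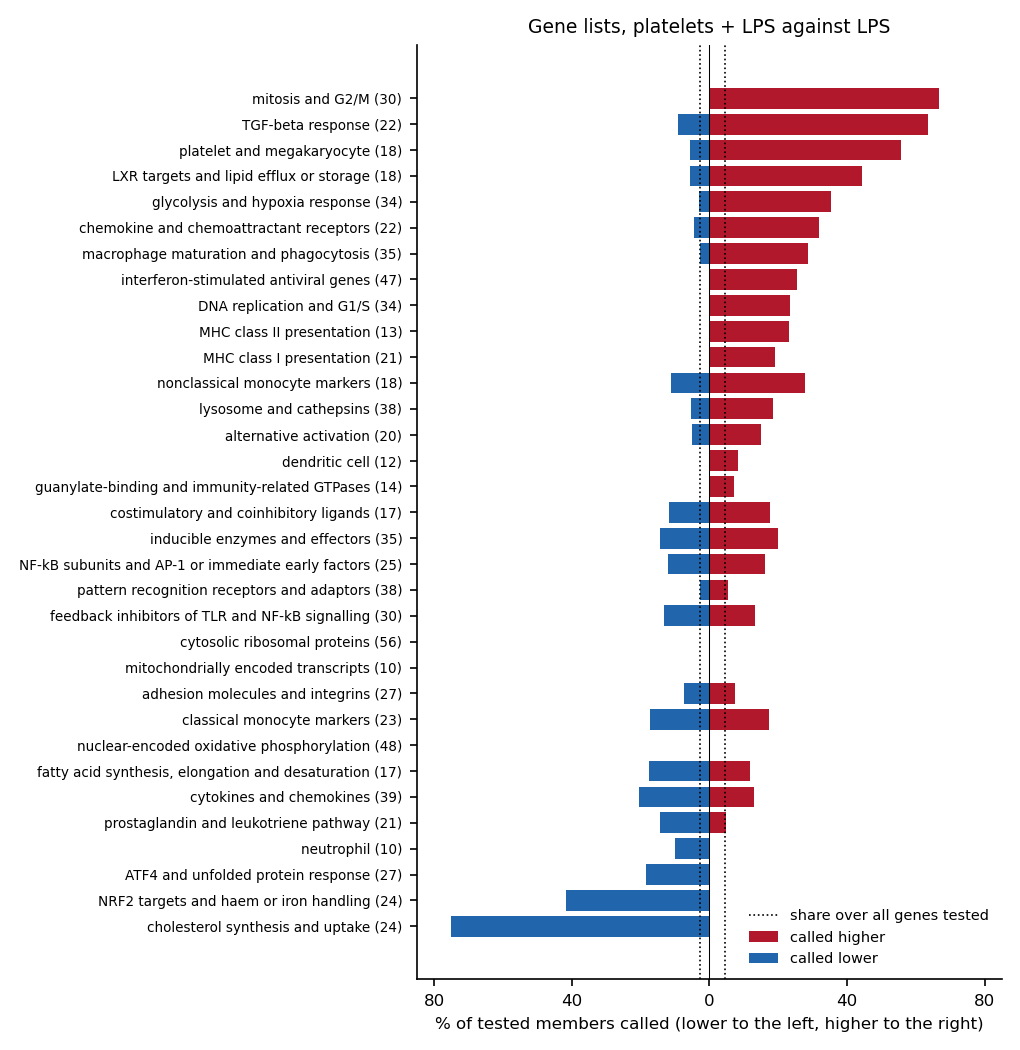
Bars give, for each list with at least 10 tested members, the share of these that was called lower (left, blue) or higher (right, red), with the number tested in brackets and dotted lines at the shares over all genes, 2.87% and 4.41%. Cholesterol synthesis reaches furthest to the left, with 18 of 24 members lower, and mitosis furthest to the right, with 20 of 30 members higher.

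Most genes of cholesterol synthesis and uptake fell. Of 24 tested members 18 were called lower and none higher, with a median log2 fold change of -1.42 against 0.01 over all genes. Sqle, squalene epoxidase, which makes the first oxygenated sterol precursor, was at 66.8, 64.4 and 66 CPM in the LPS libraries and at 14.7, 12.2 and 16.6 CPM in the platelet plus LPS libraries, 4.53-fold lower (log2 -2.18, SE 0.15, adjusted p = 1.52e-07). Cyp51, which demethylates lanosterol, went from 96.7, 105 and 92.4 CPM to 21.1, 16.8 and 21.9 CPM, 4.91-fold lower. For both enzymes the spread within a group was small beside the gap between the groups, which did not overlap.

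Genes of early and of late steps of the pathway were among those called lower. Hmgcs1, which makes HMG-CoA, was at 101, 99.3 and 106 CPM with LPS and at 29.4, 28.1 and 31.1 CPM with platelets before LPS, 3.46-fold lower (SE of the log2 value 0.11, adjusted p = 3.79e-08). Idi1, which isomerizes the isoprene unit, fell by 1.92 on the log2 scale, Fdft1, squalene synthase, by 1.70, Hsd17b7, a sterol reductase, by 1.73, and Sc5d, a late desaturase, by 1.86. Msmo1, a methylsterol oxidase, was 4.38-fold lower, from 145, 143 and 139 CPM to 29.9, 32.4 and 35.4 CPM. None of these genes overlapped between the groups.

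A regulator and a carrier of sterols were lower too. Insig1, which holds the SREBP complex in the endoplasmic reticulum and is itself a target of SREBP2, was at 57.8, 59.3 and 65.9 CPM with LPS and at 23.7, 18.6 and 24.3 CPM with platelets before LPS (log2 -1.46, SE 0.13, adjusted p = 3.51e-06). Stard4, a cytosolic sterol carrier, was at 17.1, 18.4 and 18.9 CPM and 4.69, 2.83 and 5.4 CPM. Chosen after its values were seen, Srebf2, which encodes SREBP2, fell by 1.22 on the log2 scale. The 6 members not called were Acat2, Pmvk, Mvk, Dhcr7, Tm7sf2 and Ebp, and of these only Ebp had a positive log2 value. The count of members lower was 17 to 21 over the 12 fits that each left out 1 library.

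**Figure D3:**
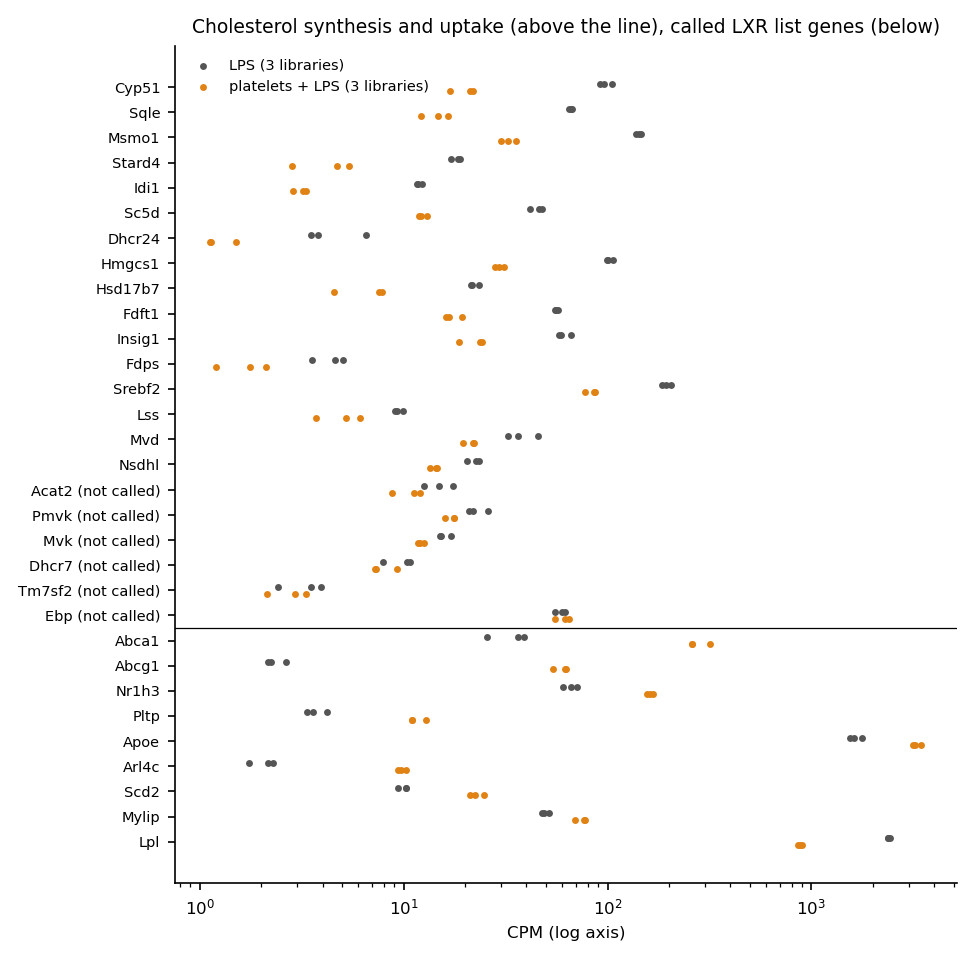
Points give the CPM of each gene on a log axis in the 3 LPS libraries (grey) and the 3 platelet plus LPS libraries (orange), with 22 tested genes of cholesterol synthesis and uptake above the line and the 9 called genes of the LXR list below it. The orange points lie to the left of the grey points for all 16 called sterol genes drawn, and to the right for 8 of the 9 LXR list genes, Lpl being the exception.

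Promoter letters were read for the sterol genes because SREBP2 is known to bind the sterol regulatory element. The core of that element, TCACNCCAC, was searched on both strands in the 250 bases before the start of each gene in RefSeq promoter windows of GRCm38.p6; the build of the deposited files is unstated, and symbols were matched by name. It occurs in 1.05% of 32851 windows and 1.17% of the 9788 tested genes with a window. Of the 18 sterol genes that fell, 11 had a window, and Hmgcs1 alone held the core. Its window, chr13:119690101-119690350 on the plus strand, is shown 5′ to 3′ with the core in capitals, whose first base lies 137 bases before the start.
Hmgcs1: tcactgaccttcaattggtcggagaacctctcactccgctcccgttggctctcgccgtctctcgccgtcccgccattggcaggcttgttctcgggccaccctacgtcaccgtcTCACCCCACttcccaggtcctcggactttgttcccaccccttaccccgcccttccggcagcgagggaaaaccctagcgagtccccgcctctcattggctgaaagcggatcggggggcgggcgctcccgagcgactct
The core shares bases with no other motif searched in this window, although it overlaps an ACGTG match in 10 windows and a TGACGTCA match in 3 windows of the whole table. A match is a run of letters, not a measured binding site.

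Genes of cholesterol export were among those that rose. Of 18 tested genes on the list of LXR targets and of lipid efflux or storage, 8 were called higher and 1 lower, with a median log2 fold change of 0.44. Abca1, which loads cholesterol onto apolipoprotein A1, was at 25.5, 39 and 36.6 CPM with LPS and at 260.0, 259 and 319 CPM with platelets before LPS, 8.31-fold higher (log2 3.05, SE 0.18, adjusted p = 4.23e-08). Abcg1, which passes cholesterol to HDL, was at 2.17, 2.64 and 2.23 CPM and 54.3, 61.8 and 62.9 CPM, 25.3-fold higher (log2 4.66, SE 0.24, adjusted p = 1.57e-08). For both transporters the lowest platelet plus LPS library was several times above the highest LPS library.

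Nr1h3, the gene of LXR alpha itself, was at 66.5, 70.6 and 60.6 CPM with LPS and at 162, 168 and 156 CPM with platelets before LPS, 2.45-fold higher (adjusted p = 1.12e-06). Apoe, the apolipoprotein that macrophages secrete with cholesterol, went from 1614, 1767 and 1545 CPM to 3206, 3467 and 3164 CPM, and Pltp, the phospholipid transfer protein, from 3.37, 3.57 and 4.2 CPM to 11, 12.9 and 11 CPM. None of the 3 overlapped between groups. Mylip, named after its values were seen, encodes a ubiquitin ligase induced by LXR and rose by 0.60 on the log2 scale. Lpl, the lipase that frees fatty acids from lipoproteins, moved the other way, from 2438, 2370 and 2384 CPM to 896, 858 and 881 CPM (log2 -1.45, SE 0.07, adjusted p = 9.37e-09). The list held 8 to 10 genes higher in the fits without 1 library, and 3 lower without platelet replicate 1 and 2 lower without platelet plus LPS replicate 3.

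Fatty acid genes did not move one way. Of 17 tested genes of fatty acid synthesis, elongation and desaturation, 2 were higher and 3 lower. Scd2, a stearoyl-CoA desaturase, was at 10.3, 9.38 and 10.2 CPM with LPS and at 24.8, 21.2 and 22.4 CPM with platelets before LPS, 2.29-fold higher (adjusted p = 5.49e-05). Me1, malic enzyme, which supplies NADPH, fell by 0.83 on the log2 scale (SE 0.12, adjusted p = 4.31e-04), and Acss2, which makes acetyl-CoA from acetate, fell by 0.70 (SE 0.15, adjusted p = 0.00797). Of the other two calls, Elovl7 had no count in the LPS libraries and was not called without LPS replicate 1, LPS replicate 2 or platelet plus LPS replicate 2. Acsl3, at 3.8, 2.15 and 5.34 CPM with LPS and 2.07, 2.1 and 1.45 CPM with platelets before LPS (adjusted p = 0.0488), kept its call in 2 of the 12 fits without 1 library, those without LPS replicate 2 or platelet replicate 1. It was not called with DESeq2 size factors, upper-quartile factors, library size alone, voom or only the 6 libraries. Without 1 library 1 to 2 were higher and 2 to 6 lower, with 6 lower without platelet replicate 1. There was 1 higher without LPS replicate 1, LPS replicate 2 or platelet plus LPS replicate 2.

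Transcripts known from platelets were present in the monocyte libraries that had met platelets. Of 23 platelet and megakaryocyte markers, 18 passed the filter, and of these 10 were higher and 1 lower. Their median log2 fold change was 2.14 when members without counts in the LPS libraries are set at their bound. Members nearly absent from the untreated and LPS libraries, such as Nrgn, Myl9 and Gp9, passed the filter only through the platelet groups. The count and the median therefore describe the tested members, not the whole list. Gng11, a G protein gamma subunit, was at 2.43, 2.07 and 1.53 CPM with LPS and at 71.6, 64.1 and 58.2 CPM with platelets before LPS, 31.5-fold higher (adjusted p = 1.92e-08). Clec1b, the platelet receptor for podoplanin, was at 0.724, 0.691 and 0.763 CPM and 14.3, 10.9 and 11.7 CPM, 16.9-fold higher (adjusted p = 5.16e-07). No library of one group reached the range of the other for either gene.

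Nrgn, a calmodulin-binding protein abundant in platelet RNA, had no count in any LPS library and was at 8.7, 9.98 and 7.01 CPM with platelets before LPS, at least 65.2-fold higher with the floor set at 3 counts per LPS library. Myl9, a myosin light chain, likewise had no count with LPS and was at 7.71, 8.44 and 7.44 CPM, at least 59.9-fold higher. Gp9, a subunit of the von Willebrand factor receptor, had 2 counts over the LPS libraries against 311, a ratio of 144 with a 95% counting interval of 39.4 to 1192. Only counting error is covered by these floors and intervals.

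Other defining platelet markers followed only in part. Gp1ba, Gp6 and Mmrn1 were called higher on few counts, 30, 41 and 44 with platelets before LPS against 0, 2 and 0 with LPS. Gp1bb, the partner of Gp9, had no count in any of the 6 libraries, Tubb1 was at no more than 0.255 CPM and Itga2b at no more than 0.619 CPM. Pf4, the platelet factor 4 chemokine that monocytes also make, was at 4438, 4402 and 3659 CPM with LPS and 3390, 3698 and 3456 CPM with platelets before LPS, and Ppbp, a related chemokine named after its values were seen, fell by 0.86 on the log2 scale. Because of Pf4, the summed level of the whole list was 3932 to 4749 CPM in the LPS libraries and 3682 to 3965 CPM in the platelet plus LPS libraries, with 7 of its members without a count in any LPS library and 1 without a count in any platelet plus LPS library. In such bulk samples, attached or engulfed platelets and transcription by the monocytes cannot be told apart, nor can fewer cells of a type and less RNA per cell. The count of members higher was 7 to 10 in the fits without 1 library, with 2 lower without platelet replicate 1.

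Red cell transcripts were low but differed as well: of 8 erythroid markers 4 passed the filter, and all 4 were higher. Hba-a1, Hba-a2 and Hbb-bt were near 0 in the LPS libraries and passed the filter through the platelet groups. The count therefore describes the tested members, not the whole list. Members that did not pass were at no more than 0.284 CPM in any of the 6 libraries. Of these, Alas2 was at 0.0362, 0.284 and 0.0545 CPM with LPS and had no count with platelets before LPS. Hba-a1, an alpha globin, had 3 counts over the LPS libraries against 476, a ratio of 147 (95% counting interval 49.9 to 714), and was at 6.99, 6.34 and 5.32 CPM with platelets before LPS. Hbb-bs, a beta globin, was at 0, 0.162 and 0.163 CPM with LPS and at 1.31, 1.16 and 0.939 CPM with platelets before LPS (adjusted p = 0.00185). Both globins were higher in every platelet plus LPS library than in any LPS library, and reads of the near-identical Hba-a1 and Hba-a2 may be swapped. The call of Hba-a2 was kept in 2 of the 12 fits without 1 library, those without LPS replicate 2 or platelet replicate 1, and was lost with no filter and in the Wald test of DESeq2. The whole erythroid list summed to 0.0362 to 0.894 CPM with LPS and 7.12 to 9.35 CPM with platelets before LPS, and 2 of its members were called without LPS replicate 1 and 2 without platelet plus LPS replicate 1. Prss34 and Mcpt8, proteases of basophils, were the basophil and mast cell markers called higher: Prss34 was at 0.362, 0.284 and 0.327 CPM and 4.04, 5.57 and 2.86 CPM, while Ms4a2, a chain of the IgE receptor, was at no more than 0.406 CPM in any of the 6. Hdc, the most abundant member of that list, lay lower without being called, from 102.1, 105.5 and 102.5 CPM to 80.6, 82.7 and 78 CPM. With it, the list summed to 103.6 to 107.5 CPM with LPS and 83.2 to 94.7 CPM with platelets before LPS. Without platelet replicate 1 or platelet replicate 3, 1 basophil and mast cell marker was lower. Whether platelet, red cell or basophil RNA has a part in the other differences was not tested.

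Each list of markers of the remaining cell types had at most 1 called member. The share called was 10% for neutrophil, 8.33% for dendritic cell and 20% for stromal and endothelial markers, against 7.28% over all genes tested. For B cells it was 50%, of only 2 tested markers. Of 10 tested neutrophil markers, Mmp8, a collagenase, was the one called, at 245, 199 and 246 CPM with LPS and 119, 126 and 118 CPM with platelets before LPS, and Ly6g was at no more than 0.0812 CPM. Without platelet replicate 1 there were 2 neutrophil markers higher, and without platelet plus LPS replicate 3 there was 1. Of 12 dendritic cell markers, Irf8, a factor that monocytes share, was called, from 120.2, 93.8 and 110.0 CPM to 185, 192 and 180.1 CPM, and without platelet replicate 1 or platelet replicate 3 there were 2. Ighm, an immunoglobulin heavy chain, went from 33.2, 35.1 and 33.1 CPM to 20.6, 18.8 and 14.6 CPM, but Cd79a stood at no more than 0.0724 CPM. Neither of the 2 tested T and NK cell markers was called, and of 5 stromal and endothelial markers Kdr was higher, with 1 other lower without platelet replicate 1.

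Most of the TGF-beta response list rose. Of 22 tested members 14 were higher and 2 lower, with a median log2 fold change of 0.83. Pmepa1, a membrane protein that TGF-beta induces and that restrains its signal, was at 2.28, 3.21 and 1.47 CPM with LPS and at 15.6, 17.5 and 14.9 CPM with platelets before LPS, 6.79-fold higher (log2 2.76, SE 0.39, adjusted p = 3.85e-04). Tgfbi, a secreted matrix protein named for its induction by TGF-beta, was at 373, 385 and 389 CPM and 858, 861 and 831 CPM, 2.22-fold higher (SE of the log2 value 0.08, adjusted p = 1.94e-07). All 3 platelet plus LPS libraries exceeded all 3 LPS libraries for both.

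Brakes and targets of the pathway were called as well. Smad6, an inhibitory SMAD, went from 21.3, 21.1 and 14.6 CPM to 36.6, 36.9 and 36.5 CPM (adjusted p = 2.40e-04), and Spsb1, a ubiquitin ligase adaptor, from 10.9, 7.47 and 10.8 CPM to 28, 27.9 and 35 CPM (adjusted p = 2.04e-05). Id2, an inhibitor of helix-loop-helix factors, rose by 0.88 on the log2 scale. Named after their values were seen, Smad7, the other inhibitory SMAD, was at 4.31, 4.51 and 2.34 CPM and 7.42, 8.57 and 8.37 CPM, and Ski, a repressor of SMAD targets, at 8.62, 8.9 and 10.2 CPM and 17, 16.9 and 15.1 CPM. None of these overlapped between the groups.

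P2ry12, the ADP receptor known from platelets and from microglia, is on the TGF-beta list too and was at 0.615, 0.934 and 0.163 CPM with LPS and at 16, 12.5 and 11.8 CPM with platelets before LPS, 22.2-fold higher (adjusted p = 1.78e-06). The members that fell, named after their values were seen, were Itgb8, an integrin that activates latent TGF-beta (log2 -1.16), and Bambi, a decoy receptor (log2 -0.40), which was not called without LPS replicate 2, platelet plus LPS replicate 1 or platelet plus LPS replicate 3. The count of members higher was 10 to 17 in the fits without 1 library, and 1 was lower in the fits that lost Bambi. The list's members were drawn from general knowledge of several tissues, but with earlier results of these data known. SMAD activity was not measured.

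Cytokines and chemokines were called in both directions. The list of cytokines and chemokines had 39 tested genes, of which 5 rose and 8 fell, and its median log2 fold change was -0.04. Ccl2, the main ligand of CCR2 on monocytes, was at 637, 625 and 537 CPM with LPS and at 1492, 1643 and 1749 CPM with platelets before LPS, 2.71-fold higher (log2 1.44, SE 0.10, adjusted p = 2.92e-07). Ccl7, another CCR2 ligand, was at 578, 568 and 479 CPM and 1501, 1643 and 1756 CPM, 3.02-fold higher (adjusted p = 4.15e-07). Every platelet plus LPS library stood above every LPS library by more than 2-fold for both, and Ccl12, a further CCR2 ligand of the mouse, rose from 56.6, 50.6 and 39.4 CPM to 117, 131 and 128 CPM (adjusted p = 1.19e-04).

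Among the lower genes were 4 ligands of CXCR2, the receptor that draws neutrophils. Cxcl5 was at 331, 268 and 288 CPM with LPS and at 66.8, 71 and 69.1 CPM with platelets before LPS, 4.29-fold lower (log2 -2.10, SE 0.12, adjusted p = 2.44e-08). Cxcl1 was at 488, 486 and 447 CPM and 292, 278 and 281 CPM, 1.67-fold lower (adjusted p = 0.00536). The groups did not overlap for either ligand, nor for Cxcl3 and Cxcl2, named after their values were seen, which fell by 0.50 and 0.54 on the log2 scale. Cxcl2 lost its call without LPS replicate 1, LPS replicate 2 or any 1 of the platelet plus LPS libraries. Ebi3, a subunit of interleukin 27 and interleukin 35, went from 186, 191 and 182 CPM to 128, 128 and 118 CPM (adjusted p = 3.12e-04). The counts over the whole list were 3 higher and 4 lower without LPS replicate 1, 3 and 5 without LPS replicate 2, 3 and 5 without platelet plus LPS replicate 1, 4 and 5 without platelet plus LPS replicate 2, and 12 lower without platelet replicate 1.

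Several of the best known LPS-induced cytokines were not called. Tnf was at 1521, 1464 and 1365 CPM with LPS and at 1412, 1476 and 1555 CPM with platelets before LPS, and the groups overlapped (log2 0.03, SE 0.09, adjusted p = 0.896). Il6 was at 132, 149 and 126 CPM and 100.1, 92.5 and 121 CPM (log2 -0.37, SE 0.12, adjusted p = 0.0676), and Il1b at 1067, 1032 and 1095 CPM and 786, 715 and 667 CPM (log2 -0.56, SE 0.20, adjusted p = 0.12). For both, the 3 platelet plus LPS libraries lay below the 3 LPS libraries without passing the test over all 12 libraries. Il6 was called without platelet replicate 1 (adjusted p = 0.016) or platelet plus LPS replicate 3 (adjusted p = 0.0319), in the Wald test, with voom and with only the 6 libraries. Il1b was called without platelet replicate 1 (adjusted p = 6.69e-04) or platelet replicate 3 (adjusted p = 0.0227), with no filter, with voom and with only the 6 libraries.

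Il10, an anti-inflammatory cytokine, had a log2 value of 0.30 (SE 0.13, adjusted p = 0.213), Il12b, the shared subunit of interleukins 12 and 23, one of -0.04 (SE 0.17, adjusted p = 0.939), and Ifnb1, interferon beta, one of -0.36 (SE 0.28, adjusted p = 0.542). Cxcl10 was at 4699, 4749 and 4627 CPM with LPS and 5191, 5383 and 6146 CPM with platelets before LPS (adjusted p = 0.184), Acod1, the enzyme that makes itaconate, had a log2 value of 0.00 (SE 0.17), and Socs3, a brake on cytokine receptors, one of 0.20 (adjusted p = 0.167). Cxcl10 was called higher without platelet replicate 1, with voom and with only the 6 libraries, and Socs3 with only the 6 libraries. A p above the threshold does not show that these levels were equal.

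**Figure D4:**
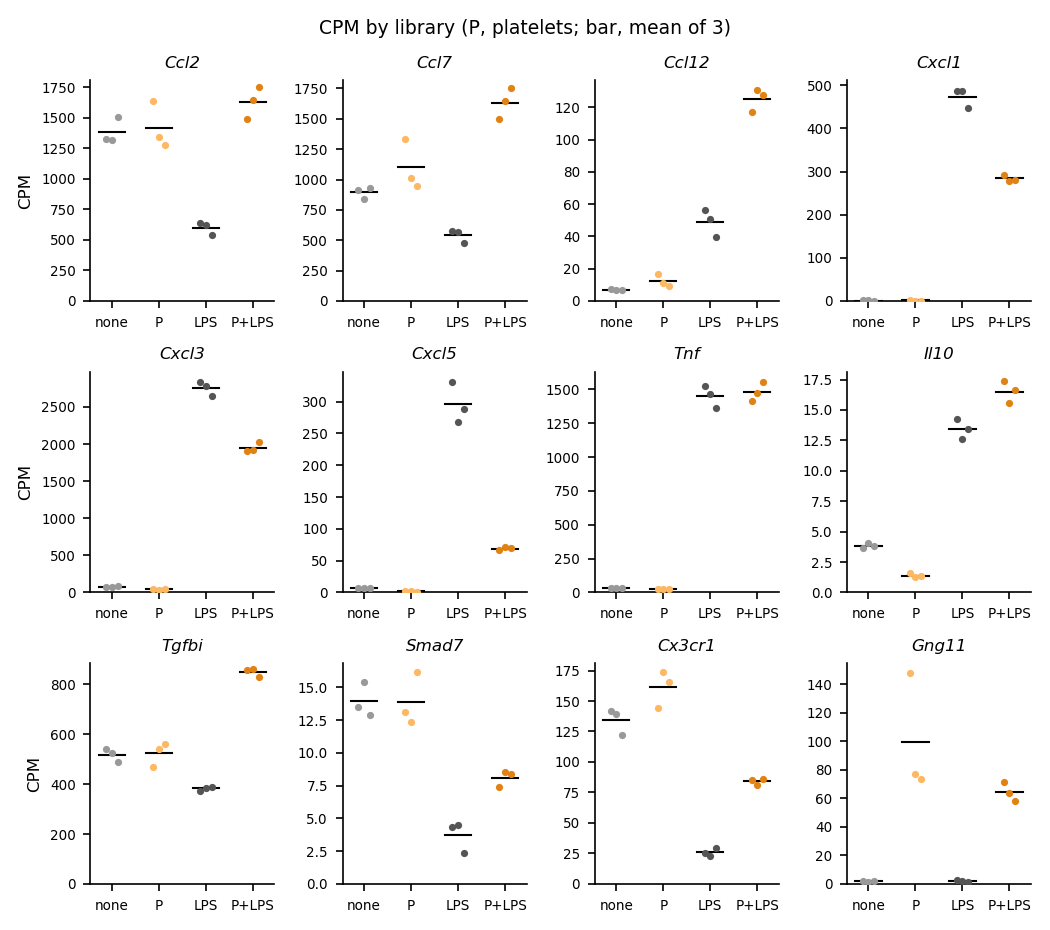
Each panel gives the CPM of 1 gene in the 12 libraries (points) and the group means (bars) for untreated cells, platelets (P), LPS, and platelets before LPS (P+LPS), on linear axes that start at 0. Ccl2, Ccl7, Ccl12, Tgfbi, Smad7, Cx3cr1 and Gng11 lie higher in P+LPS than in LPS, the Cxcl genes lie lower, and Tnf overlaps.

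Receptors for chemoattractants also shifted, with 7 of 22 tested members higher and 1 lower. Cx3cr1, the fractalkine receptor of nonclassical monocytes, was at 25.6, 23.2 and 29.2 CPM with LPS and at 85.2, 81.2 and 86.3 CPM with platelets before LPS, 3.25-fold higher (log2 1.70, SE 0.11, adjusted p = 6.13e-08). P2ry6, a receptor for UDP, went from 87, 97.9 and 87.1 CPM to 179, 201 and 184 CPM and Gpr84, a receptor for medium-chain fatty acids, from 353, 349 and 324 CPM to 571, 612 and 608 CPM. Cxcr3, the receptor of CXCL10, was low, at 2.68, 1.5 and 1.31 CPM and 8.7, 7.37 and 7.59 CPM (adjusted p = 0.00106). None of the 4 overlapped between groups. Ccr2, the receptor of the CCL2 family and the member that fell, was named after its values were seen and was at 57, 54.6 and 65 CPM with LPS and 47.2, 42.8 and 41.4 CPM with platelets before LPS. No member was lower without LPS replicate 3, platelet plus LPS replicate 2 or platelet plus LPS replicate 3, and 2 were lower without untreated replicate 2, platelet replicate 1 or platelet replicate 3.

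Macrophage maturation genes were more often higher than lower, 10 against 1 of 35 tested. Siglec1, a sialic acid receptor of tissue macrophages, was at 32, 31.9 and 35.9 CPM with LPS and at 61.2, 57.4 and 94.3 CPM with platelets before LPS, 2.14-fold higher (log2 1.09, SE 0.17, adjusted p = 8.53e-04). Cd9, a tetraspanin also found on platelets, went from 198, 181 and 171 CPM to 312, 297 and 284 CPM, and Fcgr1, a high-affinity receptor for IgG, from 231, 217 and 219.5 CPM to 312, 308 and 337 CPM (adjusted p = 0.00118). All 3 genes were without overlap. Without platelet replicate 1 the list had 16 higher and 5 lower, and without LPS replicate 1 it had 2 lower.

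Markers of monocyte subsets moved in both directions. Of 23 tested classical markers 4 were higher and 4 lower: Ly6c2, a surface antigen of the inflammatory subset, went from 92.6, 74.2 and 79.6 CPM to 119, 125 and 118 CPM, and Plac8 from 2.17, 1.62 and 2.45 CPM to 7.35, 6.9 and 7.59 CPM, whereas Cebpd, a factor induced by inflammation, went from 548, 544 and 474 CPM to 373, 377 and 351 CPM and Tmem176b, an ion channel protein, from 148, 169 and 162 CPM to 118, 115 and 108 CPM. Lyz1 rose too, but its reads cannot be fully parted from those of Lyz2. The classical counts were 3 higher and 2 lower without LPS replicate 3 or platelet plus LPS replicate 2, and 7 higher without platelet replicate 1. Of 18 nonclassical markers 5 were higher, Cx3cr1 and Klf2 among them, and 2 were lower. These nonclassical counts were the most dependent on single libraries in this group: 2 were higher without LPS replicate 3, platelet plus LPS replicate 1 or platelet plus LPS replicate 2, 3 without LPS replicate 1 or 2, any untreated library or platelet plus LPS replicate 3. Of the nonclassical markers lower, 1 was left without LPS replicate 1, LPS replicate 3 or platelet plus LPS replicate 2 and none without platelet plus LPS replicate 3.

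Interferon-stimulated genes mostly had small positive log2 values. Of 47 tested antiviral genes 12 were called higher and none lower, 44 had a positive log2 value, and the median was 0.32. Rsad2, the antiviral enzyme viperin, was at 3354, 3300 and 3182 CPM with LPS and at 4445, 4465 and 5411 CPM with platelets before LPS, 1.46-fold higher (log2 0.54, SE 0.08, adjusted p = 5.97e-04). Usp18, a brake on the interferon receptor, was at 653, 658 and 623 CPM and 859.6, 844 and 888 CPM, 1.34-fold higher (adjusted p = 0.0182), and Isg20, an exonuclease, at 51.9, 49 and 50.3 CPM and 69.8, 69.1 and 76.3 CPM. Irf7, a factor that amplifies interferon production, went from 590.1, 554 and 596 CPM to 788, 796 and 857 CPM (adjusted p = 0.0245). The groups did not overlap for these 4 genes, but Usp18 and Irf7 each lost the call without any 1 of the 6 libraries compared (adjusted p 0.0555 to 0.0734 and 0.0629 to 0.101).

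The count of antiviral genes called moved with the libraries and with the test. It was 29 with only the 6 libraries compared, 23 with no filter, 20 with voom and 19 in the Wald test of DESeq2. It was 24 without platelet replicate 1, and it was 3 without LPS replicate 2 or platelet plus LPS replicate 3, 4 without LPS replicate 1, platelet plus LPS replicate 1 or platelet plus LPS replicate 2, and 5 without LPS replicate 3. Of 14 guanylate-binding proteins and immunity-related GTPases, Iigp1, a GTPase that acts on parasite vacuoles, was called, from 18.2, 18.5 and 19 CPM to 29.9, 27.4 and 40.3 CPM (adjusted p = 0.00899), and 13 had a positive log2 value. The share of these GTPase genes called, 7.14%, was near the 7.28% over all genes tested. There were 3 called without platelet replicate 1 and 2 without platelet replicate 3.

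The interferon-stimulated response element, bound by factors that interferon activates, was looked for by its core GAAANNGAA on both strands in the same windows of 250 bases. It occurs in 7.13% of all windows, 7.79% of tested genes with a window and 16 of 35 antiviral genes with a window (45.7%). Of the 12 antiviral genes called higher, 9 had a window and 5 held the core. Rsad2, the most abundant of them, is shown 5′ to 3′ with the match in capitals, which reads as the reverse complement of the core. Its window lies at chr12:26456453-26456702 on the minus strand, and the match begins 119 bases before the start.
Rsad2: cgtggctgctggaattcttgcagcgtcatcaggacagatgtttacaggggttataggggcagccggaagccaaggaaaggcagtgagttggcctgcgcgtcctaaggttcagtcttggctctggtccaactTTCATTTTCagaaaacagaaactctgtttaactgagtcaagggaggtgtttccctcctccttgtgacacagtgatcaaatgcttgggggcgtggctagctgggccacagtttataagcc
The core shares bases with a match of the kappa B core GGANTTTCC in 4 windows and of ACGTG in 7 windows of the table.

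Antigen presentation genes rose in part. Of 13 tested class II genes 3 were higher and none lower, with a median log2 fold change of 0.37. Ctss, the protease that trims the invariant chain, was at 1968, 1906 and 1801 CPM with LPS and at 2672, 2785 and 2791 CPM with platelets before LPS, 1.45-fold higher (adjusted p = 9.68e-04). H2-Ab1, a class II beta chain, was at 133, 126 and 142 CPM and 182, 189 and 167 CPM, 1.34-fold higher (log2 0.42, SE 0.12, adjusted p = 0.039). The groups did not overlap for either, but the call of H2-Ab1 was lost in 8 of the 12 fits without 1 library (adjusted p 0.0507 to 0.149), those without any 1 of the LPS or platelet plus LPS libraries, untreated replicate 2 or untreated replicate 3. It was lost with upper-quartile factors too (adjusted p = 0.0542). Class II had 1 gene called without LPS replicate 2, platelet plus LPS replicate 2 or platelet plus LPS replicate 3 and 5 without platelet replicate 1.

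Class I genes had 4 of 21 higher and none lower, namely H2-T24, B2m, Tap1 and H2-T22. Reads of H2-T genes may be shared between close copies. None of the 4 kept its call in all 12 fits without 1 library, and H2-T22 kept it in 1, that without platelet replicate 1. The number called was 0 without LPS replicate 2 or platelet plus LPS replicate 3, 1 without LPS replicate 3, platelet plus LPS replicate 1 or platelet plus LPS replicate 2, and 2 without LPS replicate 1 or untreated replicate 2.

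Among inducible enzymes and effectors, 7 of 35 were higher and 5 lower. Arg1, which breaks arginine down to ornithine and urea, was at 38.4, 35.9 and 29.2 CPM with LPS and at 142, 156 and 114 CPM with platelets before LPS, 3.97-fold higher (log2 1.99, SE 0.14, adjusted p = 2.92e-07). Nos2, which makes nitric oxide from the same amino acid, was at 94.5, 105 and 135 CPM and 227, 215 and 274 CPM, 2.14-fold higher (log2 1.10, SE 0.18, adjusted p = 0.00166). Both users of arginine thus stood higher in every platelet plus LPS library, as did Ass1, which rebuilds arginine from citrulline, at 36.6, 26.4 and 28.3 CPM and 54.7, 56.6 and 50.1 CPM.

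Ch25h, which makes 25-hydroxycholesterol, an oxysterol that lowers SREBP2 processing and activates LXR, was at 14.4, 14.1 and 11.3 CPM with LPS and at 34.2, 36.8 and 55 CPM with platelets before LPS, 3.15-fold higher (log2 1.66, SE 0.20, adjusted p = 8.88e-05). Gatm, which turns arginine and glycine into the precursor of creatine, was at 21.8, 25.4 and 19.8 CPM and 92, 97.6 and 87 CPM, 4.12-fold higher (adjusted p = 1.57e-08). For both genes every platelet plus LPS library lay above every LPS library. Ptgs2, the inducible cyclooxygenase, was at 254, 254 and 279 CPM and 120.3, 89.7 and 119.8 CPM, 2.39-fold lower (adjusted p = 0.00831), a call that was lost without platelet plus LPS replicate 2 (adjusted p = 0.0628) and in the Wald test of DESeq2 (adjusted p = 0.323). The number of effectors lower was 1 without platelet plus LPS replicate 2, 2 without LPS replicate 1, LPS replicate 3, platelet plus LPS replicate 1 or platelet plus LPS replicate 3, 3 without untreated replicate 2 and 8 without platelet replicate 1.

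In the prostaglandin and leukotriene pathway, 3 of 21 genes were lower and 1 higher. Besides Ptgs2, the lower genes were Pla2g4a, the phospholipase that frees arachidonic acid, at 94.1, 82.5 and 106 CPM with LPS and 60.3, 63 and 56.4 CPM with platelets before LPS, and Pla2g7, which inactivates platelet-activating factor, at 695, 621 and 573 CPM and 485, 487 and 447 CPM. Tbxas1, thromboxane synthase, was 1.25-fold higher (adjusted p = 0.0431), and this call was lost without any 1 of the LPS replicates 1 and 2, the untreated replicates or the platelet plus LPS replicates. It was also lost with DESeq2 size factors (adjusted p = 0.0663), library size alone (adjusted p = 0.085) and no filter (adjusted p = 0.0655). Pla2g4a was not called without LPS replicate 3, nor Pla2g7 without LPS replicate 1 or platelet plus LPS replicate 3. The number lower was 2 without LPS replicate 1, LPS replicate 3, platelet plus LPS replicate 2 or platelet plus LPS replicate 3.

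Regulators of the LPS signal were mixed. Of 30 tested feedback inhibitors 4 were higher and 4 lower. Dusp4, a phosphatase of MAP kinases, was at 32.1, 28.9 and 31.3 CPM with LPS and at 84.2, 74.4 and 77.3 CPM with platelets before LPS, 2.56-fold higher (log2 1.35, SE 0.13, adjusted p = 6.32e-06). Il1rn, the interleukin 1 receptor antagonist, was at 255, 236 and 295 CPM and 466, 457 and 433 CPM, 1.73-fold higher (adjusted p = 1.23e-04). Zc3h12c, a ribonuclease of the Regnase family, went the other way, from 184, 204 and 229 CPM to 125, 108 and 141 CPM. Those 3 genes had no overlap, and without platelet replicate 1 there were 7 inhibitors lower.

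Toll-like and other pattern recognition receptors and their adaptors were called about as often as all genes. Of 38 tested members 2 were higher and 1 lower, 7.89% called against 7.28% over all genes tested. Tlr4, the LPS receptor, was at 16.9, 12.7 and 16.8 CPM with LPS and 16, 12.8 and 14.5 CPM with platelets before LPS (adjusted p = 0.843), and Cd14 at 2313, 2379 and 1950 CPM and 1843, 1917 and 1634 CPM (log2 -0.30, SE 0.09, adjusted p = 0.0598). The values of Tlr4 overlapped, and those of Cd14 did not. The calls were Tlr3 and Tlr2 higher and Irak2 lower, and none of the 3 kept its call in all 12 fits without 1 library. Without platelet plus LPS replicate 3 there were none, without any 1 of the other LPS or platelet plus LPS libraries there was 1 higher and at most 1 lower, and without platelet replicate 1 there were 3 higher and 5 lower.

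Transcription factors of the early response split as well, with 4 of 25 higher and 3 lower. Fos, an AP-1 subunit, was at 129, 131 and 122 CPM with LPS and at 248, 249.8 and 243 CPM with platelets before LPS, 1.94-fold higher (log2 0.95, SE 0.07, adjusted p = 4.61e-07), and Jun, its partner, was at 43.7, 32.2 and 36 CPM and 62.4, 54.5 and 58.9 CPM (adjusted p = 0.00154). Rel, an NF-kB subunit, was at 133, 131 and 149 CPM and 82.4, 75.6 and 97.2 CPM, 1.62-fold lower (adjusted p = 0.0014). None of the 3 overlapped, and without platelet replicate 1 the counts were 6 higher and 5 lower.

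Cell division genes were called higher only. Of 30 tested genes of mitosis and G2/M 20 were higher and none lower, with a median log2 fold change of 0.47. Aurka, a spindle kinase, was at 21.8, 22.6 and 20.7 CPM with LPS and at 37.9, 34.1 and 36 CPM with platelets before LPS, 1.66-fold higher (log2 0.73, SE 0.09, adjusted p = 1.10e-04). Plk1, another mitotic kinase, was at 18.2, 17.7 and 16 CPM and 29.1, 29.2 and 30.4 CPM, 1.71-fold higher (adjusted p = 3.43e-04), and Cdc20, an activator of the anaphase-promoting complex, at 20.2, 22 and 18.2 CPM and 32.7, 35.5 and 30.3 CPM. Each of the 3 was higher in every platelet plus LPS library. The count was 8 without LPS replicate 3, 9 without LPS replicate 1, 10 without platelet plus LPS replicate 1 or 2, 11 without platelet plus LPS replicate 3 and 13 without LPS replicate 2.

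Genes of DNA replication and G1/S showed less, with 8 of 34 higher, none lower and a median of 0.21. Cdt1, which licenses replication origins, was at 12.2, 12.3 and 10.2 CPM with LPS and at 18.4, 24.2 and 23.5 CPM with platelets before LPS, 1.89-fold higher (adjusted p = 1.01e-04). Mcm7, a helicase subunit, was at 24.1, 23.1 and 26.2 CPM and 34.7, 34.6 and 33.4 CPM (adjusted p = 0.00268). Both sets of libraries were apart, and 4 genes were called without LPS replicate 3, platelet plus LPS replicate 2 or platelet plus LPS replicate 3 and 5 without untreated replicate 2. Bulk counts do not give the share of cells in each phase.

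Glycolysis and hypoxia response genes had 12 of 34 members higher and 1 lower, with a median log2 fold change of 0.22. Vegfa, the vascular growth factor, was at 16.3, 17.9 and 14.7 CPM with LPS and at 48, 41.8 and 44.6 CPM with platelets before LPS, 2.74-fold higher (log2 1.45, SE 0.12, adjusted p = 1.08e-06). Hk2, an inducible hexokinase, was at 64.8, 69 and 64.1 CPM and 110.1, 118 and 129 CPM, 1.8-fold higher (adjusted p = 1.19e-04), and Slc16a3, the lactate exporter, at 184, 196 and 175 CPM and 259, 256 and 244 CPM. All 3 were free of overlap. Of 48 nuclear genes of oxidative phosphorylation none was called in either direction. The hypoxia response element core ACGTG, on either strand, lies in 16.6% of all windows, in 25.3% of tested genes with a window, in 54.8% of the 31 glycolysis and hypoxia genes with a window, and in 10 of the 12 called ones with a window.

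Antioxidant and iron genes were called lower only. Of 24 tested NRF2 targets and genes of haem or iron handling, 10 were lower and none higher, with a median log2 fold change of -0.20. Slc40a1, ferroportin, the iron exporter, was at 53, 34.8 and 45.9 CPM with LPS and at 20.1, 21.4 and 19.1 CPM with platelets before LPS, 2.21-fold lower (log2 -1.14, SE 0.21, adjusted p = 0.0027). Nqo1, a quinone reductase, was at 27.1, 24 and 24.6 CPM and 17.4, 15.2 and 13.9 CPM, 1.63-fold lower (adjusted p = 0.0031). Both were lower in every platelet plus LPS library. The count was 3 without LPS replicate 1, 4 without platelet plus LPS replicate 3, 5 without platelet plus LPS replicate 1 and 6 without LPS replicate 3 or platelet plus LPS replicate 2.

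Of 27 genes of the ATF4 and unfolded protein response 5 were lower and none higher, 18.5% called against 7.28% over all genes tested. The list as a whole did not fall: its median log2 fold change was 0.01, with 14 positive and 13 negative values. Trib3, a pseudokinase induced by ATF4, was at 8.69, 6.38 and 8.07 CPM with LPS and at 2, 3.08 and 1.13 CPM with platelets before LPS, 3.73-fold lower (log2 -1.90, SE 0.29, adjusted p = 8.37e-04), and Sesn2, a stress-induced brake on mTORC1, was at 66.8, 74.7 and 69.3 CPM and 45.6, 49.7 and 36.5 CPM (adjusted p = 0.00157). Neither overlapped. The list had 3 lower without LPS replicate 1, LPS replicate 2 or platelet plus LPS replicate 2, and 3 higher and 7 lower without platelet replicate 1.

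Lysosomal genes had 7 of 38 members higher and 2 lower. Ctsk, a collagen-degrading cathepsin, was at 4.67, 5.2 and 6.05 CPM with LPS and at 18.8, 18.8 and 14.6 CPM with platelets before LPS, 3.3-fold higher (adjusted p = 8.60e-07), while Ctsl, another cathepsin, was at 1422, 1381 and 1302 CPM and 985, 1032 and 1000 CPM, 1.36-fold lower (adjusted p = 4.98e-04). The libraries of the groups were apart for both. Counts were 3 higher and 1 lower without platelet plus LPS replicate 2, 4 and 1 without LPS replicate 1, and 4 higher without LPS replicate 2.

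Adhesion and costimulation genes were called in both directions, at 14.8% and 29.4% of tested members against 7.28% over all genes tested. Of 27 adhesion molecules and integrins 2 were higher and 2 lower: Icam1, the ligand of leukocyte integrins, went from 1429, 1430 and 1429 CPM to 978, 969.8 and 954 CPM (log2 -0.56, SE 0.10, adjusted p = 0.0029). Of 17 costimulatory and coinhibitory ligands 3 were higher and 2 lower, with Cd86, the ligand of CD28, at 31.6, 27.3 and 35.9 CPM with LPS and 47.6, 43.9 and 45.7 CPM with platelets before LPS (adjusted p = 0.00797) and Slamf1, a receptor that binds itself on other leukocytes, at 0.579, 0.447 and 0.327 CPM and 2.51, 3.3 and 2.11 CPM (adjusted p = 6.14e-04). Those 3 genes did not overlap. Of 20 genes of alternative activation 3 were higher, Arg1 and Vegfa among them, and Pparg, a lipid-sensing factor, was lower, at 7.1, 8.57 and 8.77 CPM and 5.09, 5.05 and 4.54 CPM. In the fits without 1 library the number lower was 1 to 3 for adhesion, with 1 without any 1 of the LPS libraries, untreated replicate 2, platelet plus LPS replicate 1 or platelet plus LPS replicate 2. For adhesion, 4 were higher and 3 lower without platelet replicate 1. The costimulatory number lower was 1 without LPS replicate 1, LPS replicate 3, any untreated library, platelet replicate 2, platelet replicate 3 or platelet plus LPS replicate 2, and none without LPS replicate 2, platelet plus LPS replicate 1 or platelet plus LPS replicate 3. For alternative activation, 5 were higher without platelet replicate 1, and 2 were lower without platelet replicate 1 or LPS replicate 1.

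Further genes among the largest rises belong to no list. Cd300lf, an inhibitory receptor that binds membrane lipids, was at 5.07, 2.8 and 4.8 CPM with LPS and at 37.3, 39.1 and 33 CPM with platelets before LPS, 8.65-fold higher (log2 3.11, SE 0.17, adjusted p = 1.92e-08). Ctla2a, an inhibitor of cathepsin-type proteases, was at 2.35, 1.75 and 2.07 CPM and 95.7, 89.3 and 74.2 CPM, 41.8-fold higher (adjusted p = 1.57e-08). Usp2, a deubiquitinase with circadian expression, was at 3.4, 2.76 and 2.72 CPM and 12.1, 14.7 and 15.3 CPM, 4.7-fold higher (adjusted p = 1.80e-07). In all 3 genes the groups were far apart, and Tmeff1, a membrane protein with follistatin domains, was 4.01-fold higher.

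The platelet effect was also measured without LPS, from the 6 libraries that the comparison above does not use. Platelets against untreated cells gave 854 called genes (6.49%), 478 higher and 376 lower. Of the 580 genes higher before LPS, 216 were higher without LPS too, which is 37.2% of the first list and 45.2% of the second. Of the 377 genes lower, 120 were lower in both, 31.8% of the first list and 31.9% of the second. The count without LPS was 410 without untreated replicate 2, 439 without untreated replicate 1 and 546 without platelet replicate 2.

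Sterol and export genes moved with or without LPS. Sqle was at 154, 148 and 149.9 CPM in untreated cells and 32.2, 50.7 and 44.9 CPM after platelets alone, Abca1 at 7.33, 7.75 and 4.35 CPM and 96.2, 102 and 106 CPM, and 19 of the 24 cholesterol genes were lower without LPS. The LPS-dependent part was tested as the interaction, the platelet effect in LPS-treated cells less that in cells without LPS, which was called in 208 genes (1.58%), and in 98 of the 580 genes higher and 36 of the 377 genes lower. Of the cholesterol genes named, Msmo1 (interaction -0.75, adjusted p = 0.0132) and Sc5d (interaction -0.67, adjusted p = 0.0445) fell more with LPS, and the differences of Sqle (-0.36, SE 0.20) and Abcg1 (-0.03, SE 0.31) were not called. The interaction count was 87 without untreated replicate 2, 98 without LPS replicate 1, 113 to 122 without any 1 of LPS replicate 2, untreated replicate 1, platelet replicate 2 or the platelet plus LPS replicates, 135 without untreated replicate 3 and 361 without platelet replicate 1.

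Other changes were seen with LPS only in size or in direction. Cx3cr1 was at 142, 139 and 122 CPM in untreated cells and 144, 174 and 166 CPM after platelets alone, and Ccl2 at 1324, 1316 and 1507 CPM and 1636, 1345 and 1280 CPM. Both genes were lower in the LPS libraries, given above, than in untreated cells, and their interactions were 1.44 (adjusted p = 9.82e-05) and 1.40 (adjusted p = 1.10e-04) on the log2 scale. Usp2 had the largest positive interaction at 10 CPM or more, 1.87 (adjusted p = 1.48e-04). The next, Il10, was at 3.65, 4.03 and 3.77 CPM untreated and 1.58, 1.25 and 1.31 CPM after platelets alone, a fall of 1.47, but at 14.3, 12.6 and 13.5 and 17.4, 15.5 and 16.6 CPM in the LPS groups (interaction 1.77, adjusted p = 2.29e-04).

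The most negative interactions at 10 CPM or more in the highest group were Ccl5, Clec1b, Il1a, Saa3 and Ccr7. Ccl5, a chemokine for T cells, was at 0.175, 0.0351 and 0 CPM untreated and 2.57, 1.31 and 1.96 CPM after platelets alone, but at 5026, 5692 and 4261 CPM with LPS and 4848, 5376 and 5348 CPM with platelets before LPS. Named after their values were seen, 9 genes were higher with platelets before LPS but lower after platelets alone, Noct, Il6ra, Cd72, Plxnd1, Jmjd1c, Adam19, Sdc1, Synj2 and Zfp36l2, and 6 went the other way, Tmem176b, Gdf15, Il10ra, Spic, Jdp2 and Sla. The interaction was called for all 15, but only Tmem176b and Zfp36l2 kept both opposite calls in all 12 fits without 1 library. Gdf15, a stress-induced cytokine, was at 12.5, 10.2 and 13.2 CPM untreated, 23.1, 18.4 and 15.9 CPM after platelets, 54.3, 60.9 and 45.8 CPM with LPS and 18.8, 25.1 and 17.5 CPM with platelets before LPS.

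**Figure D5:**
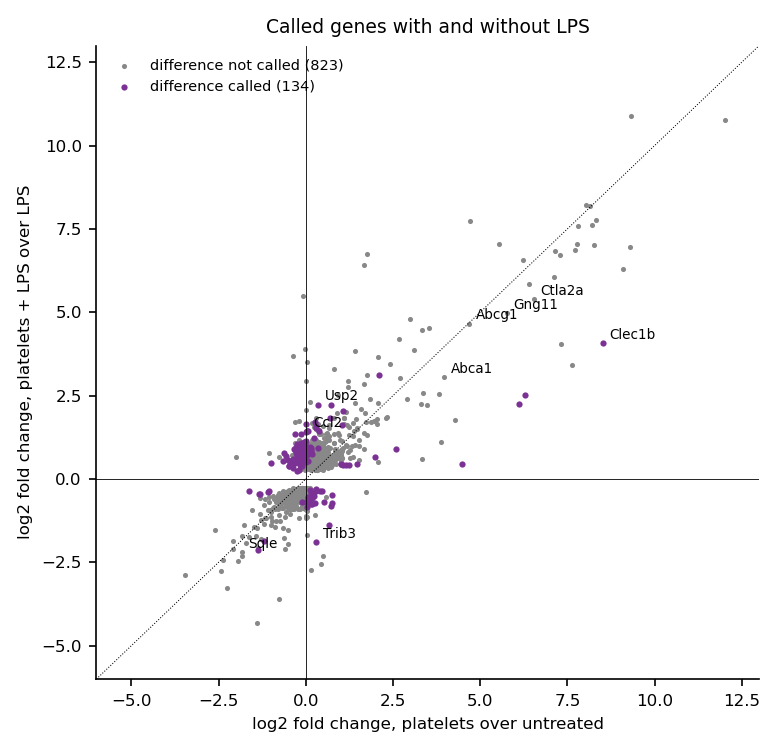
Each point is 1 of the 957 genes called in platelet plus LPS against LPS, with the log2 fold change of platelets over untreated on the horizontal axis and that of platelet plus LPS over LPS on the vertical axis. The 134 genes whose 2 effects differ in the interaction test are purple and the 823 others grey; the dotted line marks equal effects, and Abcg1 and Sqle lie near it.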

How the data were processed

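Gene expression of bone marrow monocytes was measured by RNA sequencing, with cDNA amplified by a SMARTer kit and Nextera XT libraries, per the labels. Tools named in the submitters' processing notes, with no role given, are Salmon 1.5.2, featureCounts, Subread 2.0.1, STAR 2.7.9a and fastp 0.23.1. The deposited files hold whole-number counts per gene, not normalized, for 53819 genes, and they were used as deposited. Build, annotation and strand: not given in the sources used here. Without them, overlapping or antisense genes may share reads.

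Group and replicate number came from titles and treatment labels. Counts were filtered with filterByExpr and scaled by TMM in edgeR 4.0.16 (R 4.3.3), and all 12 libraries entered a single fit of 4 group means with 8 residual degrees of freedom and a common dispersion of 0.0171. Tests were two-sided with a Benjamini-Hochberg threshold of 0.05. The contrasts were platelet plus LPS against LPS, platelet against untreated, and their difference. SE is the log2 fold change divided by the square root of F. The same code was run on simulated counts that used the spread estimated from these data, with changes planted only in genes at 10 CPM or more. It recovered most of the largest planted changes. Recovery at lower levels was not tested.

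Members and the 38 lists (970 entries, of which 834 genes were tested) were chosen with earlier results of these data known. Named genes are the 12 largest rises and falls with at least 10 CPM in the higher group, no overlap and no predicted gene or pseudogene, up to 5 members of each list by smallest p, 19 fixed genes, and the 5 largest interactions each way. Some genes are not reported here. Others are said to be named after their values were seen. Lists are described by counts and medians without a set test, and 3 members were looked up under newer names. Promoter windows are RefSeq's.

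Alternatives tried were scaling by library size alone, by upper quartiles or by DESeq2 size factors, a stricter filter (1 CPM and 10 counts in 3 libraries) or none, a block for replicate number, DESeq2 1.42.0 with its Wald test, voom of limma 3.58.1, only the 6 libraries compared, a log2 fold change of at least 1, and leaving out each library.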

Additional observations from a re-analysis of the deposited data

Results flagged for a closer look

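The difference between the platelet effect in LPS-treated cells and in cells without LPS passed edgeR's test (adjusted p under 0.05 over all genes) for 208 genes, of which 35 belong to the genes chosen by rule and are given here. The values below are that difference on the log2 scale, so that a positive value means a larger rise, or a smaller fall, when LPS followed.

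Among surface receptors and regulators of monocytes and macrophages, the difference was 1.44 for Cx3cr1, 1.32 for P2ry6, 1.01 for Cd300lf, 0.66 for Irf8 and 0.50 for Fcgr1. It was -1.24 for Tmem176b, -1.23 for Cd300e, a receptor of nonclassical monocytes, -3.79 for Slamf1, -0.62 for Icam1, -0.63 for H2-Aa and -0.74 for H2-Ab1. Slamf1 was at 0.0351, 0.0701 and 0 CPM in untreated libraries, so that the size of its difference rests on values near 0. The class II genes rose by 1.06 and 1.16 without LPS and by 0.43 and 0.42 with it.

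For cytokines, chemokines and their receptors the difference was 1.40 for Ccl2, 1.30 for Ccl7, 1.77 for Il10 and 1.47 for Pdgfa, a growth factor for mesenchymal cells. It was -0.74 for Ebi3, -4.66 for Ccl5, -4.04 for Il1a, -2.97 for Saa3, an acute phase protein, and -2.89 for Ccr7, a receptor that guides cells to lymph nodes. Il1a had 1 count over the untreated libraries, so its difference depends on the prior count of the fit. Ccl5, Saa3 and Ccr7 had untreated means of 0.0701, 0.451 and 0.314 CPM, so that the size of their differences also rests on values near 0. With LPS, none of these 3 was called (adjusted p = 0.891, 0.963 and 0.726).

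In the TGF-beta list it was 1.13 for Tgfbi and 0.80 for Smad6. In signalling and early response genes it was 1.66 for Dusp4, 0.99 for Fos and -0.64 for Irak2. In stress, hypoxia and cell cycle genes it was -2.21 for Trib3, -0.56 for Herpud1, -0.57 for Bnip3 and 0.96 for Cdt1. Among lipid genes it was -0.75 for Msmo1, -0.67 for Sc5d and 1.51 for Arl4c, a small GTPase on the LXR list.

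The remaining values were 1.87 for Usp2, 0.96 for Gatm and -4.44 for Clec1b. Clec1b was at 0, 0 and 0.136 CPM in untreated libraries and at 0.724, 0.691 and 0.763 CPM in LPS libraries.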

How the results depend on the processing

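The count of 957 genes was 557 to 1640 over the 12 fits that each left out 1 library and 213 with a log2 fold change of at least 1. It stayed within 1.5 times of 957 under the other scalings, filters and tests. The count of 854 for platelets without LPS was 410 to 1027 without 1 library, 1291 with DESeq2, 415 with only its own 6 libraries and 229 with a log2 fold change of at least 1. The interaction count of 208 was 87 to 361 without 1 library, 371 with no filter, 403 with DESeq2 and 75 with a log2 difference of at least 1. Replicate numbers did not pair the libraries: deviations of same-numbered libraries correlated at 0.0087, -0.0035 and 0.053. A replicate block gave 726 genes in the main comparison, 621 without LPS and 118 in the interaction. The cause of these moves was not tested.

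Of 156 genes chosen by rule, 142 were called; 106 of these kept their call under every alternative that gave a value, 36 lost it under at least 1, and none changed sign. Genes near 0 that were not called changed sign. Acod1 was -0.0093 with DESeq2 size factors and with the Wald test, -0.0047 with upper-quartile factors, -0.0083 with library size alone, -0.0016 with a replicate block, -0.0059 with only the 6 libraries, and -0.034 to 0.049 without 1 library. Without 1 library, Tnf was -0.011 to 0.068, Il12b -0.16 to 0.030, Ccl5 -0.046 to 0.16 and Saa3 -0.11 to 0.10. Of list counts of 3 or more, antiviral genes aside, no filter gave 5 class II genes higher and 3 ATF4 genes lower, the stricter filter 2 erythroid genes higher, the Wald test 5 class II and 5 alternative activation genes higher and 5 early response and 5 fatty acid genes lower, and voom 5 replication genes higher. With only the 6 libraries 5 class II, 7 class I, 7 classical monocyte and 2 erythroid genes were higher and 7 feedback inhibitors, 5 early response genes and 8 effectors lower. The median log2 fold change of all genes was 0.0045 to 0.0129 over the scalings. With 3 libraries a group, genes under 1 CPM had a median SE of 0.617 on the log2 scale, against 0.0972 at 100 CPM or more.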

Other observations

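Granule genes of immature myeloid cells were highest in 1 library. Mpo, myeloperoxidase, was at 4.18 CPM in platelet plus LPS replicate 1 and at 0.514 and 0.0391 CPM in replicates 2 and 3, and Elane, neutrophil elastase, was at 2.15 CPM in replicate 1 and had no count in the other two. In the LPS libraries Mpo was at no more than 0.109 CPM. Neither gene passed the filter, so neither was tested. Without that library 597 genes were called.

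Of 572 long noncoding RNAs tested, 13 were higher and 7 lower. Protein-coding genes had 557 higher and 363 lower of 11443. The difference between these shares was not tested.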
